A study of Sus scrofa with 8 samples.

Results

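The genes of the cytosolic ribosome were followed in backfat, the subcutaneous fat of the back, from KNP and YS pigs. Members were the probe sets annotated with a single gene symbol that starts with RPL or RPS and a digit, or with RPSA, RPLP0, RPLP1 or RPLP2, and the RPS6K kinases were left out. This gave 96 probe sets for 64 genes, of 6765 genes with a symbol of their own on the array, and 38 of the 64 belonged to the large subunit and 26 to the small subunit. There were 4 KNP samples from pigs 7 months old and 4 YS samples from pigs 6 months old, kept under the same conditions, each read on 1 Affymetrix GeneChip Porcine Genome Array. One label gives YS as Yorkshire, KNP is not spelled out, and sex is not stated. Age was tied to breed, so the effects of age and breed cannot be told apart. The labels do not say that each sample came from a different animal, so the errors and p-values measure only the spread between these samples.

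A cytosolic ribosome is built from ribosomal RNA and a set of proteins, nearly all of them present once per ribosome. The small subunit reads the messenger RNA, and the large subunit joins the amino acids and lets the growing chain out through a tunnel. The mRNAs of ribosomal proteins are among the most abundant in most cells, adipocytes included, and start with a run of pyrimidines (the TOP tract) through which mTORC1 and LARP1 control their translation with nutrients and insulin. An array measures only the mRNA level, not its translation.

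All values are log2(signal + 16), where the signal is the deposited brightness of a probe set, and each mean stands with the SD of the 4 arrays of its breed. A gene was read on its probe set of highest mean. Of the 96 probe sets, 92 passed a filter that left out the 25% of probe sets with the lowest mean, and they covered 62 genes, 37 of the large and 25 of the small subunit. RPL30 and RPS15A were each represented by 1 probe set that did not pass and were not tested. RPL30 had 5.69 ± 1.81 (SD, n = 4) in KNP and 5.93 ± 1.22 (SD, n = 4) in YS, and RPS15A had 5.23 ± 0.81 and 6.35 ± 0.59. The other 2 probe sets that did not pass were extra probe sets of RPL13A and RPS25. RPS3 and RPL36A were not analysed here. Background was gauged on each array from 23 control probe sets that have no pig target, and their 95th percentile served as the background guide. All 62 genes except RPL26 were above this level on all 8 arrays, as were 83 of the 92 probe sets. The mean log2 signal was 13 or more for 55 of the 62 genes.

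The arrays had been scaled to a trimmed mean signal of 500 each, and their medians ran from 158 to 263. The background guide ran from 40.6 on YS replicate 2 to 161 on YS replicate 4. The signal of 3' over 5' control probe sets for actin, GAPDH and elongation factor, a sign of RNA integrity and of labelling, was largest on KNP replicate 1 (9.13 on the log2 scale), KNP replicate 2 (5.92) and YS replicate 4 (4.43), and lay between 2.12 and 3.18 on the other 5 arrays. Of 12 adipocyte markers 10 were on the array, and all 10 were above the background guide on every array, with a summed signal of 86349 to 134180. The median deviation of the 10 from their own means was -0.45 on KNP replicate 1 and -0.57 on YS replicate 4. On the other arrays it lay between 0.060 and 0.42. KNP replicate 2 stood apart in skeletal muscle markers: its 16 measured markers summed to 93400 with all 16 above the guide, and the other 7 arrays summed to 4854 to 9574 with 2 to 9 above it. Results that rest on these arrays are given with and without them.

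Ribosomal protein genes had slightly higher mean signals in KNP than in YS backfat, and no single gene was separated from the spread between arrays. The mean was higher in KNP for 57 of 62 genes, 32 of 37 in the large subunit and 25 of 25 in the small subunit. Over all 6006 named genes tested the share with a higher KNP mean was 51.8%. Counted by probe set, it was 76 of 92 members (82.6%), 44 of 57 in the large and 32 of 35 in the small subunit. Over all 17999 probe sets tested the share was 49.9%. The median difference of the 62 genes was 0.15 on the log2 scale, or 1.11-fold, against -0.001 over all probe sets. The standard error of a member gene's difference had a median of 0.24. The single-gene differences were thus mostly smaller than their own error.

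In limma's moderated test with Benjamini-Hochberg adjustment, 0 of the 92 probe sets passed an adjusted p of 0.05, and the share over all probe sets was 0%. The smallest adjusted p among the members was 0.9998. At an unadjusted p under 0.05 the count was also 0 of 92, beside 2.84% of all probe sets. The count of member genes with all 4 KNP values above all 4 YS values was 0 of 62, beside 1.1% of all probe sets, and the count with all 4 below was 0 of 62, beside 0.856%. For 59 of the 62 genes the 95% interval of the difference lay within 2-fold in both directions, and the exceptions were RPL26 (-0.46 to 2.22), RPL3 (-0.30 to 1.03) and RPL8 (-0.49 to 1.05). For all probe sets this share was 41.1%.

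The count of 57 rests in part on the arrays named above and on the scaling. Without KNP replicate 2, the array with muscle markers, 51 of 62 genes had the higher mean in KNP, beside 51.8% of all probe sets. Without YS replicate 4 it was also 51, beside 54.8%. Without the 3 arrays of largest 3' over 5' signal, it was 36 of 62, 13 of 25 in the small and 23 of 37 in the large subunit. The median difference was then 0.012, beside a share of 54.2% and a median of 0.045 over all probe sets. With the 3' over 5' signal as a covariate on all 8 arrays it was 53 of 62, with a median of 0.14, beside 47.5% of all probe sets. Without KNP replicate 1, where that signal was largest, it was 54 of 62, with a median of 0.14, beside 48.0%. Among the 29 named member genes, 8 had a difference of the other sign without the 3 arrays: RPL3, RPL15, RPL37, RPLP0, RPLP1, RPS6, RPS21 and RPSA. After quantile normalization, which gives all arrays 1 distribution, 43 of 62 genes had the higher mean in KNP, beside 49.6% of all probe sets. By subunit it was 19 of 25 in the small and 24 of 37 in the large, with a median of 0.061 over the 62. The part of RNA quality and of muscle in the difference was not tested. In bulk tissue, fewer cells of a type and less RNA per cell cannot be told apart.

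**Figure D1:**
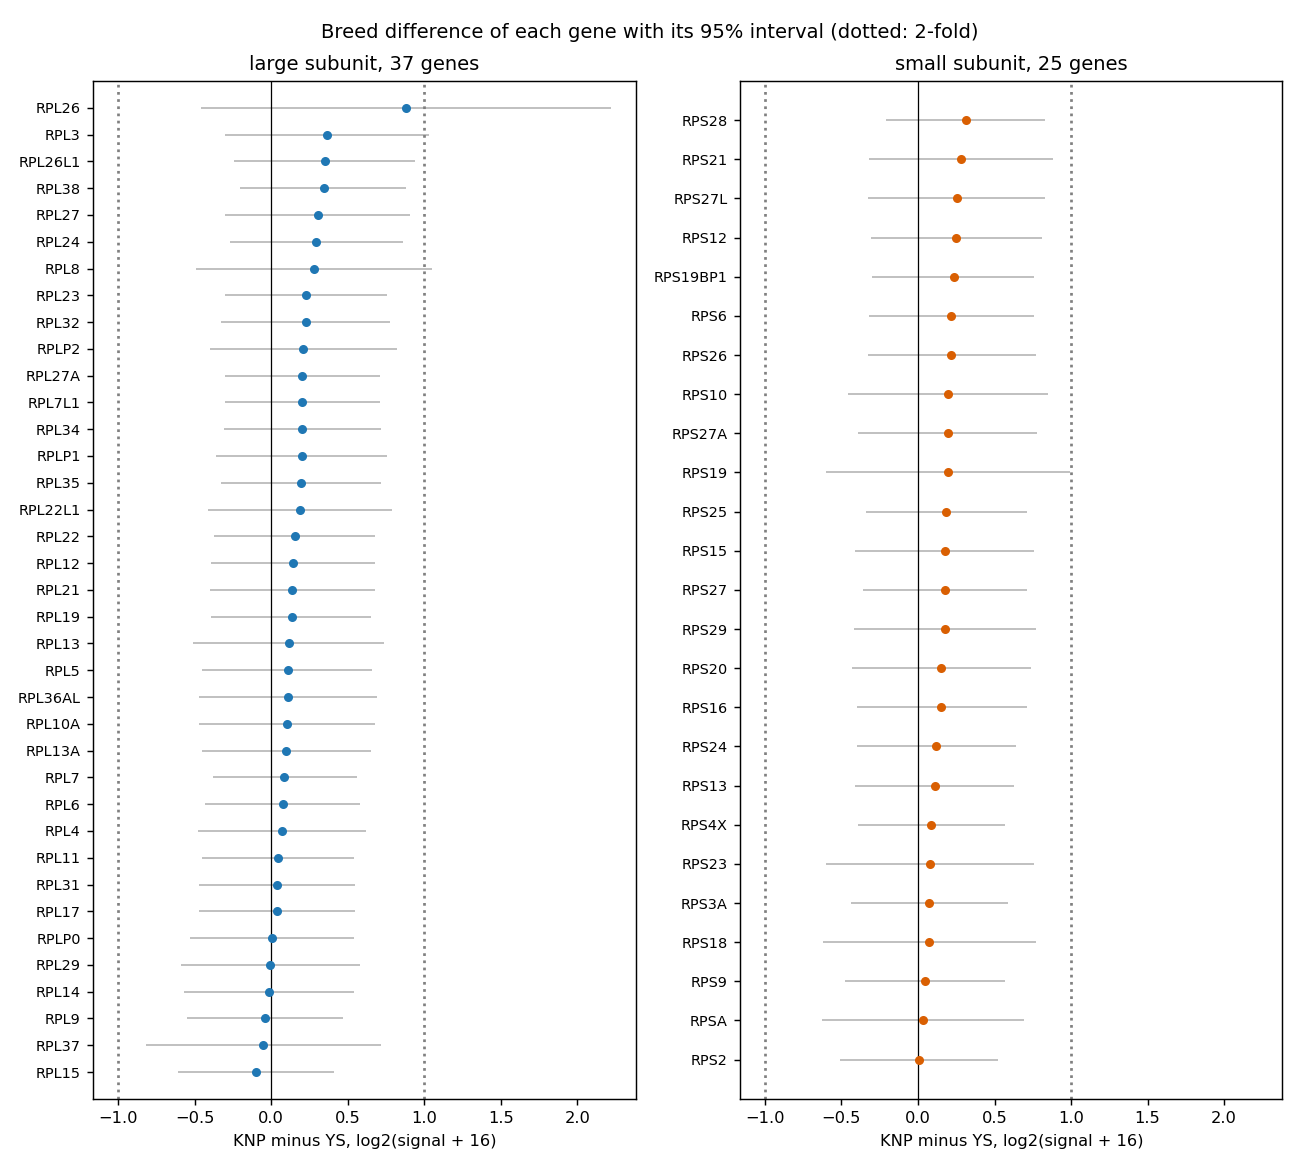
Difference between breeds (horizontal axis, KNP minus YS, log2(signal + 16)) for 37 large subunit genes on the left and 25 small subunit genes on the right, with points for the estimate and bars for the 95% interval. Points lie to the right of 0 for 57 of 62 genes, every interval crosses 0, and the dotted lines mark 2-fold.

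The members were also set beside other bright probe sets, because the spread of an array value depends on its brightness. Among 279 probe sets outside the list with a mean of 13 or more, 144 had the higher mean in KNP (51.6%), with a median difference of 0.0032 and a within-breed SD of 0.39. Among the 55 member genes with a mean of 13 or more, 51 had the higher mean in KNP, with a median of 0.15 and a within-breed SD of 0.23. The 95% interval lay within 2-fold for 66.7% of the first and 96.4% of the second.

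The stalk of the large subunit, which recruits the translation factors that hydrolyse GTP, was represented by RPLP0, RPLP1, RPLP2 and RPL12. All 4 had the higher mean in KNP, with a median difference of 0.17. RPLP0, the scaffold of the stalk and a common reference gene, read 15.07, 15.30, 14.84 and 14.71 on the KNP arrays, in the order of replicates 1 to 4, and 15.03, 14.87, 15.14 and 14.86 on the YS arrays. All YS values lay within the KNP range, and the difference was 0.0077 ± 0.24 (SE). RPLP1, an acidic protein bound to RPLP0, read 14.36, 14.71, 14.23 and 14.17 in KNP and 14.27, 14.27, 14.33 and 13.79 in YS. KNP replicate 2 was the highest and YS replicate 4 the lowest, and the difference was 0.20 ± 0.25. RPLP2, its partner, read 14.07, 14.60, 14.50 and 14.20 in KNP and 14.10, 14.22, 14.54 and 13.66 in YS. Again only YS replicate 4 lay outside the KNP range, and the difference was 0.21 ± 0.27. Without the 3 arrays of largest 3' over 5' signal the differences were -0.24 for RPLP0, -0.087 for RPLP1 and 0.061 for RPLP2. RPLP0 was also below 0 after quantile normalization (-0.12), with the covariate (-0.063) and with array weights (-0.071).

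RPL5 and RPL11 bind the 5S rRNA, and outside the ribosome the same particle binds MDM2 and stabilises p53. RPL5 read 15.64, 15.56, 15.74 and 15.17 in KNP and 15.38, 15.14, 15.47 and 15.69 in YS, a difference of 0.11 ± 0.25. RPL11 read 15.32, 15.20, 15.39 and 15.02 in KNP and 15.28, 15.03, 15.15 and 15.30 in YS, a difference of 0.042 ± 0.22. In both genes KNP replicate 4 was the lowest KNP array and YS replicate 4 the highest YS array, so the breeds overlapped.

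The proteins that line or surround the tunnel for the nascent chain were represented by RPL4, RPL17, RPL19, RPL22, RPL26, RPL31 and RPL35. All 7 had the higher mean in KNP, with a median difference of 0.13. RPL26, which sits near the tunnel exit, had the smallest unadjusted p of the member genes (0.17, adjusted p of 0.9998 in limma with Benjamini-Hochberg adjustment). It read 6.97, 7.71, 6.39 and 6.75 in KNP and 4.34, 6.20, 6.42 and 7.35 in YS, a difference of 0.88 ± 0.59. Only 2 KNP arrays and 1 YS array were above the background guide, so the value describes signals near background. The difference was 0.30 without YS replicate 1, 1.36 with a pseudocount of 1 and 0.49 with a pseudocount of 64. The other 6 genes of this group differed by 0.040 (RPL17) to 0.19 (RPL35).

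Among the 20 other large subunit genes, 15 had the higher mean in KNP and 5 in YS, with a median difference of 0.13. RPL38, known from a mouse skeletal mutant in which translation of Hox mRNAs is impaired, read 15.38, 15.33, 15.15 and 14.89 in KNP and 14.91, 14.59, 15.09 and 14.79 in YS. KNP replicates 1 to 3 were above every YS array and KNP replicate 4 was within the YS range, and the difference was 0.34 ± 0.24. For RPL38 it was 0.16 without the 3 arrays of largest 3' over 5' signal. RPL3, which reaches close to the site of peptide bond formation, read 14.09, 14.31, 13.46 and 13.53 in KNP and 13.42, 13.57, 13.85 and 13.08 in YS, a difference of 0.37 ± 0.29. Its KNP mean was carried by replicates 1 and 2, and without the 3 arrays of largest 3' over 5' signal the difference was -0.12.

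The 5 genes with the higher mean in YS were RPL15, RPL9, RPL37, RPL14 and RPL29, all of the large subunit, and their differences ran only from -0.10 to -0.0048. RPL15, an rRNA-binding protein needed to assemble the large subunit, read 13.68, 13.79, 14.15 and 13.95 in KNP and 13.97, 13.88, 14 and 14.12 in YS, a difference of -0.10 ± 0.22. RPL9, at the base of the stalk, read 15.50, 15.51, 15.41 and 15.10 in KNP and 15.36, 15.23, 15.52 and 15.56 in YS, a difference of -0.038 ± 0.23. The low KNP replicates were 1 and 2 for RPL15 but replicate 4 for RPL9, so the lower mean did not come from the same array. RPL37, a zinc-finger protein of the large subunit, read 8.30, 8.83, 9.39 and 9.64 in KNP and 8.71, 9.12, 9.50 and 9.05 in YS, a difference of -0.051 ± 0.34. Its only probe set was dim, with a mean of 9.07, whereas 55 of the 62 genes had 13 or more. RPL14 differed by -0.016 ± 0.25. The breeds overlapped in both genes. For the 4 of these 5 genes recomputed under the alternatives the sign was not stable: without the 3 arrays of largest 3' over 5' signal RPL15 was at 0.099 and RPL37 at 0.41, without KNP replicate 1 RPL37 was at 0.20, without YS replicate 1 RPL14 was at 0.077, and without KNP replicate 4 RPL9 was at 0.056.

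In the small subunit, the head, which moves as the mRNA is advanced, was represented by 11 genes and the body and platform by 12. All 23 had the higher mean in KNP, with medians of 0.19 in the head and 0.098 in the body and platform. RPS28, a head protein at the channel where the mRNA leaves, read 15.13, 15.42, 15.08 and 14.88 in KNP and 14.91, 14.77, 14.96 and 14.63 in YS. KNP replicates 1 to 3 were above every YS array, and the difference, the highest among the 25 small subunit genes, was 0.31 ± 0.23. For RPS28 it was 0.10 without the 3 arrays of largest 3' over 5' signal. RPS12, another protein of the head, read 15.28, 15.46, 15.44 and 14.87 in KNP and 15.05, 14.90, 15.29 and 14.82 in YS, a difference of 0.25 ± 0.25. KNP replicate 4 was again within the YS range, and KNP replicate 1 lay just inside it. For RPS12 the difference was 0.072 without the 3 arrays of largest 3' over 5' signal.

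RPS21, a small protein of the body, read 15.42, 15.58, 14.95 and 14.79 in KNP and 14.94, 14.76, 15.17 and 14.75 in YS, a difference of 0.28 ± 0.27. RPS6, the phosphorylation target of the S6 kinases below mTORC1, read 15.45, 15.41, 15.22 and 14.89 in KNP and 15.12, 14.91, 15.21 and 14.85 in YS, a difference of 0.22 ± 0.24. In both genes KNP replicates 1 and 2 were the highest of all 8 arrays, and without the 3 arrays of largest 3' over 5' signal the differences were -0.083 for RPS21 and -0.026 for RPS6. RPSA, a platform protein also described as a laminin receptor, read 14.56, 15.25, 15.06 and 14.80 in KNP and 15.17, 14.94, 15.16 and 14.28 in YS, a difference of 0.030 ± 0.29, and of -0.17 without YS replicate 4. Here KNP replicate 1 was the lowest KNP array, the reverse of RPS6.

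The array annotation also placed RPS19BP1 under the rule for small subunit symbols, although the gene encodes a nucleolar protein that binds RPS19 and not a ribosomal protein. It read 9.50, 9.36, 9.43 and 9.37 in KNP and 9.60, 9.05, 9.09 and 8.99 in YS, a difference of 0.23 ± 0.24. YS replicates 2 to 4 were below all KNP arrays and YS replicate 1 was above them. Without it and without the copies of ribosomal protein genes named further on, 51 of 56 genes had the higher mean in KNP, 28 of 33 in the large and 23 of 23 in the small subunit.

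The large and small subunits were compared on each array, since a ribosome needs both in equal number. The median deviation of large subunit genes from their own means was 0.093, 0.23, 0.10 and -0.14 on the KNP arrays and 0.0094, -0.13, 0.071 and -0.23 on the YS arrays. For small subunit genes it was 0.20, 0.26, 0.092 and -0.21 in KNP and -0.048, -0.21, 0.081 and -0.22 in YS. Both subunits were highest on KNP replicate 2, and KNP replicate 4 was below YS replicates 1 and 3 for both. The spread between arrays of a breed was about as wide as the difference between breeds: large subunit medians were 0.070 ± 0.16 (SD, n = 4) in KNP and -0.068 ± 0.13 in YS, and small subunit medians were 0.083 ± 0.21 and -0.10 ± 0.15.

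The large minus small median was -0.014 ± 0.075 (SD, n = 4) in KNP and 0.033 ± 0.048 in YS. The KNP arrays ran from -0.11 to 0.072 and the YS arrays from -0.011 to 0.088, and the ranges overlapped. Taken over genes, the median difference between breeds was 0.14 in the large and 0.17 in the small subunit, a gap of -0.038. Its sign was not stable: the gap was 0.033 without KNP replicate 1, 0.041 with the 3' over 5' signal as a covariate, 0.029 without the 3 arrays where that signal was largest, and 0.0061 after quantile normalization. No difference in subunit balance between the breeds was detectable with 4 arrays each.

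**Figure D2:**
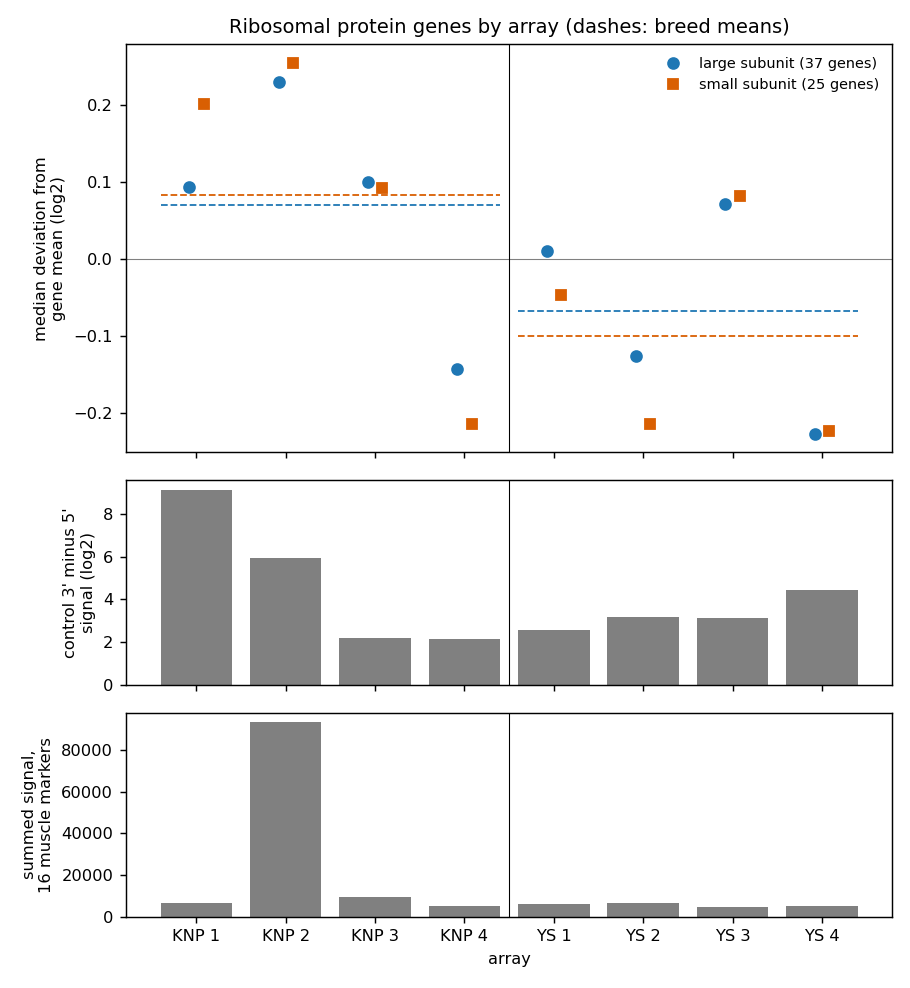
Median deviation of ribosomal protein genes from their gene means by array (top, log2, circles for 37 large and squares for 25 small subunit genes, dashes for breed means), the log2 3' minus 5' signal of control probe sets (middle bars) and the summed signal of 16 muscle markers (bottom bars). Both subunits are highest on KNP replicate 2, the array with a muscle sum of 93400, and the KNP and YS arrays overlap.

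Counted gene by gene, 57 of 62 genes were above their own mean on KNP replicate 2, and 27 had their highest value of all 8 arrays there. On YS replicate 4, 29 of 62 had their lowest value, and 14 were above their mean. On KNP replicate 4 only 11 were above their mean, and 41 had their lowest KNP value there. YS replicate 3 was on the side of KNP replicates 1 to 3, with 46 genes above their mean. Over all 8 arrays, no array held the highest or the lowest value of more than 29 of the 62 genes.

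Other bright probe sets moved in part in the same way. The median deviation of the 279 bright probe sets outside the list was 0.17 on KNP replicate 2, -0.15 on KNP replicate 4 and -0.29 on YS replicate 4, beside 0.25, -0.16 and -0.23 for the member genes. On YS replicate 1 they were apart, at 0.14 for the bright probe sets and -0.016 for the members. On YS replicate 2 the values were 0.014 and -0.14. These levels depend on how each array was scaled, and their part in the members' values was not tested.

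**Figure D3:**
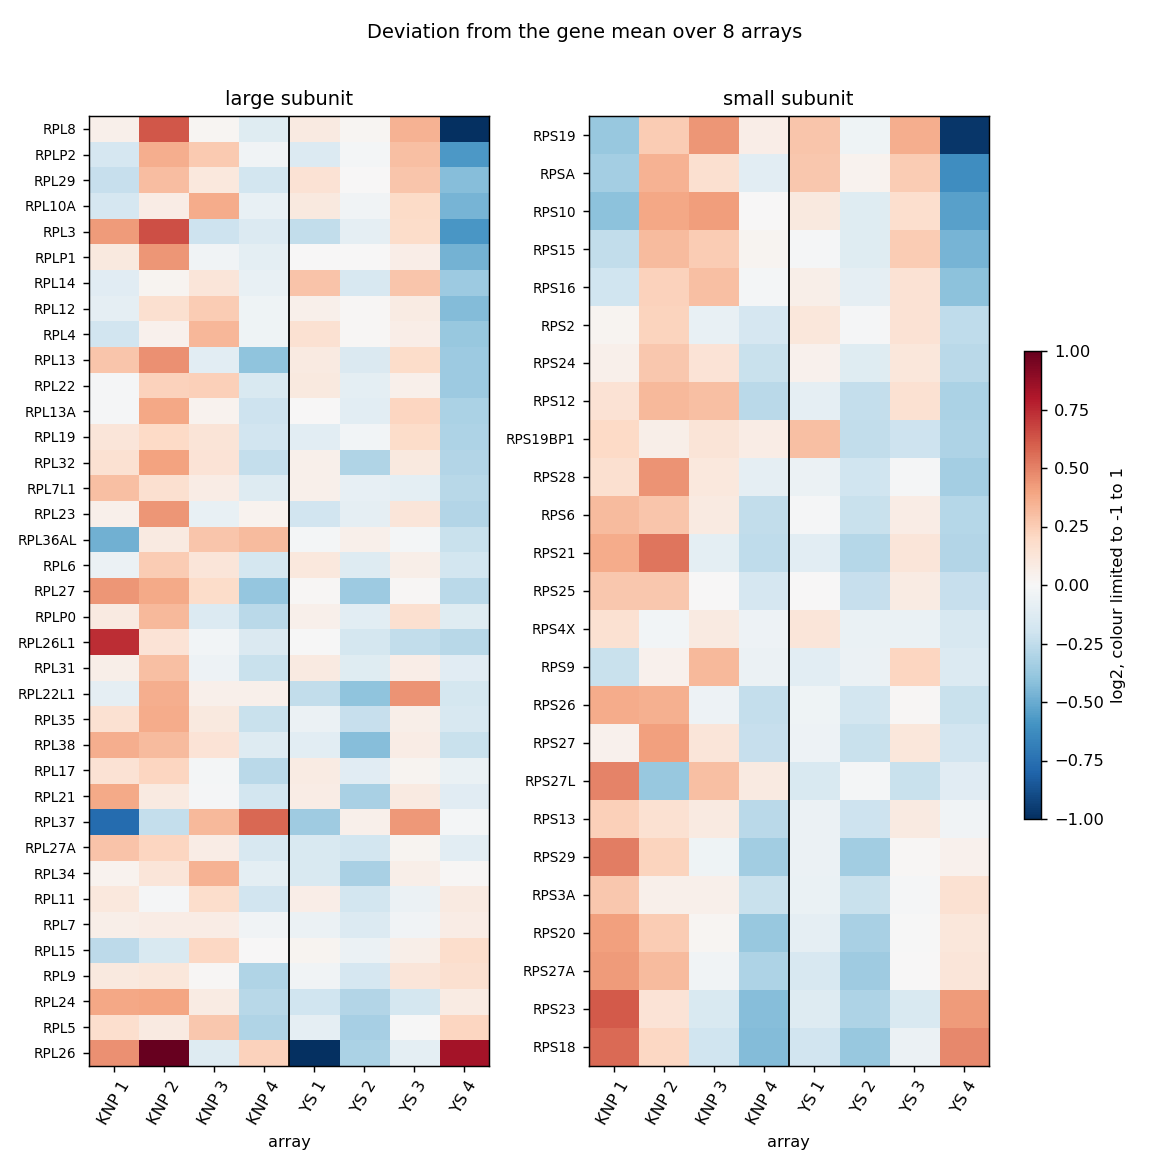
Deviation of each ribosomal protein gene from its mean over 8 arrays (log2, colour from blue at -1 to red at 1), with large subunit genes on the left, small subunit genes on the right, and genes ordered within each subunit by YS replicate 4 minus the other YS arrays. KNP replicate 2 is red for most genes, with 57 of 62 above their mean. YS replicate 4 runs from blue at RPL8 and RPS19 to red at RPL26 and RPS18. On that array RPL26 was below the background guide, and another probe set of RPS18 had its lowest value.

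Genes did not all depart alike on the arrays of large 3' over 5' signal. KNP replicate 1 minus the mean of the other KNP arrays, and YS replicate 4 minus the mean of the other YS arrays, were both above 0 for 14 genes and both below 0 for 23. For 23 genes KNP replicate 1 was higher and YS replicate 4 lower, and for 2 the reverse held. Both departures were at least 0.3 upward for RPL24, RPS18 and RPS23, and at least 0.3 downward for RPL29, RPL4, RPLP2, RPS10, RPS15, RPS16, RPS19 and RPSA. These genes were singled out after their values had been seen.

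RPS18, a head protein near the contact with the large subunit, read 16.60, 16.24, 15.83 and 15.60 in KNP and 15.84, 15.65, 15.97 and 16.51 in YS. RPS23, which lies at the decoding centre, read 16.04, 15.56, 15.27 and 15 in KNP and 15.30, 15.12, 15.27 and 15.85 in YS. On these probe sets, KNP replicate 1 and YS replicate 4 were the highest arrays of all 8 in both genes. For RPS18 its other probe sets did not show this. One read 14.22, 14.57, 14.50 and 14.48 in KNP and 14.63, 14.33, 14.74 and 13.83 in YS, with those arrays the lowest of all 8. Another read 15.43, 15.48, 15.17 and 14.40 in KNP and 14.96, 14.75, 15.10 and 14.87 in YS. RPS19, a head protein mutated in Diamond-Blackfan anaemia, read 14.50, 15.13, 15.32 and 14.94 in KNP and 15.15, 14.83, 15.24 and 13.90 in YS. There the same arrays were the lowest of all 8. Between breeds the differences were 0.075 ± 0.31 for RPS18, 0.081 ± 0.30 for RPS23 and 0.19 ± 0.35 for RPS19. RPL8, a protein close to the site of peptide bond formation, read 13.89, 14.46, 13.86 and 13.72 in KNP and 13.93, 13.86, 14.19 and 12.83 in YS, and was low on YS replicate 4 alone. The part of RNA integrity in these departures was not tested.

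**Figure D4:**
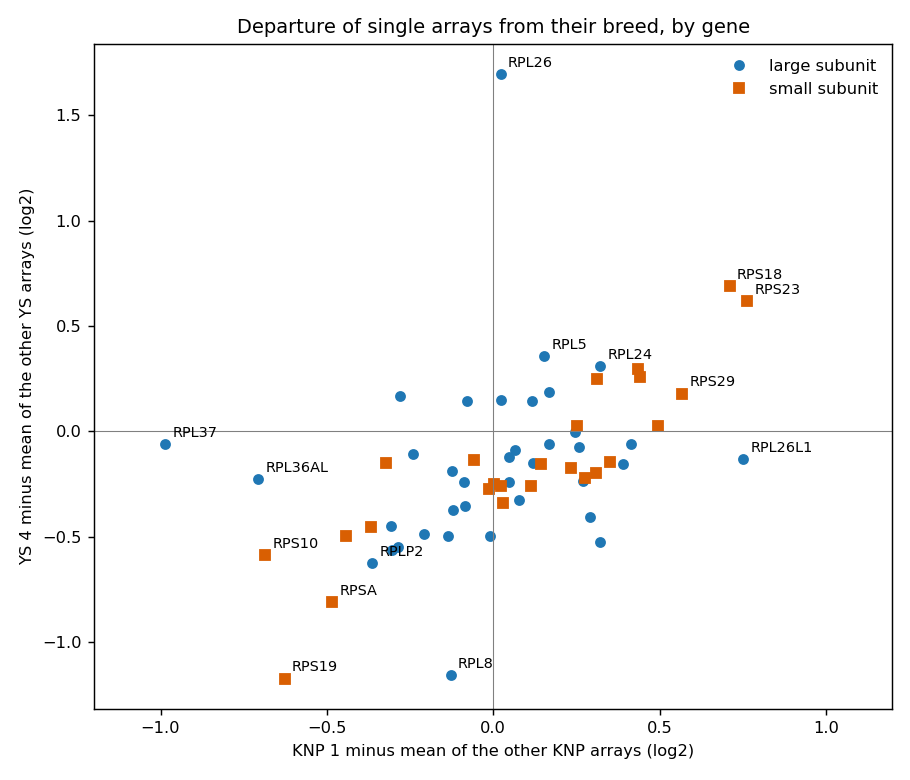
KNP replicate 1 minus the mean of the other KNP arrays (horizontal, log2) against YS replicate 4 minus the mean of the other YS arrays (vertical, log2), 1 point per gene, circles for large and squares for small subunit genes. RPS18 (0.71 and 0.69, on its probe set of highest mean) and RPS23 (0.76 and 0.62) lie at the upper right. RPS19 (-0.63 and -1.17) and RPSA (-0.48 and -0.81) lie at the lower left.

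Copies of ribosomal protein genes with their own coding sequence were measured beside their partners. RPL22L1, a copy of RPL22 that is regulated by it, read 13.30, 13.75, 13.44 and 13.44 in KNP and 13.14, 12.99, 13.84 and 13.21 in YS, a difference of 0.19 ± 0.27, and RPL22 differed by 0.16 ± 0.23. RPL26L1 read 11.05, 10.45, 10.29 and 10.17 in KNP and 10.31, 10.14, 10.07 and 10.04 in YS, a difference of 0.35 ± 0.26. Its KNP mean was raised by replicate 1. Without the 3 arrays of largest 3' over 5' signal, the RPL26L1 difference was 0.058.

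RPL7L1, a protein of large subunit assembly, read 11.69, 11.55, 11.46 and 11.26 in KNP and 11.44, 11.31, 11.29 and 11.11 in YS. The difference was 0.20 ± 0.22, and its partner RPL7 differed by 0.087 ± 0.21. Without the 3 arrays of largest 3' over 5' signal, the RPL7L1 difference was 0.012. RPS27L, a copy of RPS27 that p53 induces, read 12.68, 11.80, 12.48 and 12.27 in KNP and 12.03, 12.16, 11.96 and 12.07 in YS. KNP replicates 1, 3 and 4 were above all YS arrays and replicate 2 was below them. RPS27L differed by 0.25 ± 0.26 and RPS27 by 0.17 ± 0.24, and by 0.33 and 0.0012 without the 3 arrays of largest 3' over 5' signal. RPL36AL differed by 0.11 ± 0.26. All 5 copies had the higher mean in KNP, with intervals that included 0. Ribosomal protein genes have many processed pseudogenes and close copies in mammals, and the files do not say which probes could bind more than 1 of them.

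For 24 genes more than 1 probe set passed the filter, which gives a second reading of the same gene on the same RNA. The differences between breeds had the same sign on all probe sets of a gene for 13 genes and not for 11. The gap between the highest and lowest difference of a gene had a median of 0.18 and ran from 0.0049 for RPLP0 to 0.97 for RPL38. The 30 probe sets that did not stand for their gene had the higher mean in KNP in 19 cases, with a median difference of 0.080 and a within-breed SD of 0.38, wider than the 0.23 of the member genes.

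The 6 genes with the widest gap were RPL38, RPL34, RPS12, RPS27A, RPL23 and RPS6. The second probe set of RPL38 read 11.08, 11.07, 10.44 and 10.43 in KNP and 10.57, 12.13, 12.31 and 10.51 in YS, a difference of -0.63 ± 0.47. The 2 high values on YS replicates 2 and 3 are not seen on the brighter probe set. For RPL34, another large subunit protein, the differences were 0.20 ± 0.23 and -0.44 ± 0.67, and for RPS12 they were 0.25 ± 0.25 and -0.35 ± 0.83. Their second probe sets were above the background guide on 6 and 5 of the 8 arrays.

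RPS27A, which is made as a fusion with ubiquitin, differed by 0.20 ± 0.26 on its brighter probe set, which read 16.11, 16, 15.65 and 15.38 in KNP and 15.53, 15.33, 15.69 and 15.81 in YS. Its second probe set read 8.31, 8.36, 8.14 and 8.88 in KNP and 8.83, 9.01, 8.67 and 8.63 in YS, a difference of -0.36 ± 0.25. RPS6 differed by 0.22 ± 0.24 and, on its second probe set, by -0.32 ± 0.25. RPL23, which also binds MDM2, differed by 0.23, 0.12 and -0.32 on its 3 probe sets. Without the 3 arrays of largest 3' over 5' signal, the brightest probe sets of RPL34, RPS27A and RPL23 differed by 0.26, 0.0012 and 0.039. With the mean of all its probe sets in place of the brightest, the differences of RPL38, RPS12, RPL7, RPL34, RPS27A and RPS6 were below 0, between -0.18 and -0.049, and 49 of 62 genes had the higher mean in KNP.

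**Figure D5:**
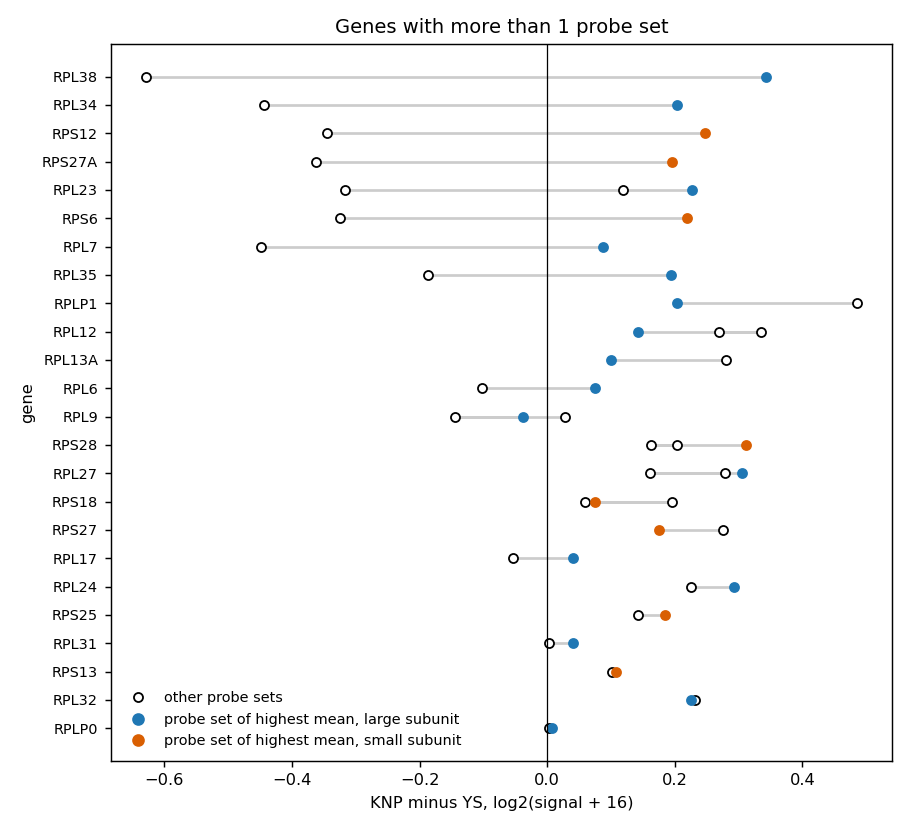
Difference between breeds (horizontal, KNP minus YS, log2(signal + 16)) for the 24 genes with more than 1 probe set that passed the filter (vertical), filled points for the probe set of highest mean and open points for the others. The readings of a gene lie apart by 0.0049 (RPLP0) to 0.97 (RPL38), and 11 genes have points on both sides of 0.

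Beyond the members, the other parts of ribosome production were read from lists, and 0 genes of any of these lists passed an adjusted p of 0.05 in limma with Benjamini-Hochberg adjustment. The 7 lists held 165 measured genes, each counted once, and 2 of them (1.21%), NOP56 and POLR1D, had an unadjusted p under 0.05, beside 2.84% of all probe sets. All 4 KNP values were above all 4 YS values for 3 of the 165 (1.82%, beside 1.1% of all probe sets), NOP56, GRWD1 and NACA, and below them for 1 (0.61%, beside 0.856%), MRPS22. GRWD1 and MRPS22 were named after their values had been seen. Both ribosomal proteins outside the symbol rule had the higher mean in KNP. FAU, a fusion of a ubiquitin-like protein with RPS30, had 14.46 ± 0.27 (SD, n = 4) in KNP and 14.23 ± 0.23 in YS, and RACK1, the scaffold protein of the small subunit head, had 14.83 ± 0.24 and 14.69 ± 0.23. Of 64 measured ribosome assembly factors 43 had the higher mean in KNP, with a median of 0.086. NOP56, a core protein of the box C/D particles that methylate rRNA, read 10.45, 10.66, 10.47 and 10.10 in KNP and 9.88, 9.44, 9.98 and 9.40 in YS. All 4 KNP arrays were above all 4 YS arrays, and the difference was 0.74 ± 0.26, with an adjusted p of 0.9998 in limma. GRWD1, a chaperone of RPL3, had 8.60 ± 0.22 in KNP and 8.12 ± 0.20 in YS.

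Of 10 genes of RNA polymerase I transcription, which makes the large rRNAs, 7 had the higher mean in KNP, with a median of 0.11. POLR1D, a subunit shared by RNA polymerases I and III, had 12.15 ± 0.81 in KNP and 11.22 ± 0.28 in YS. Of 17 genes outside the member list whose mRNAs carry a TOP tract, 12 had the higher mean in KNP, with a median of 0.10. FAU, RACK1 and some elongation factors are counted in this list as well as in their own, so the counts are not independent. NACA, a subunit of the complex that meets the nascent chain at the ribosome, read 14.74, 14.58, 14.79 and 14.57 in KNP and 14.47, 14.45, 14.43 and 14.50 in YS, a difference of 0.21 ± 0.21 without overlap. Elongation factors were split 3 and 3, with a median of 0.062, and genes of mTORC1, S6 kinase and TOP mRNA control 7 and 7, with a median of 0.034.

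Mitochondrial ribosomal proteins, which build a different ribosome from nuclear genes, had the higher mean in KNP for 36 of 58 genes, with a median of 0.050. MRPL52 and MRPL4 had the smallest p of that list, with differences of 0.57 ± 0.28 and -0.68 ± 0.34. MRPS22, a small subunit protein of the mitochondrial ribosome, had 8.61 ± 0.19 in KNP and 8.88 ± 0.07 in YS. For comparison, 51.4% of the 5944 named genes outside the member list had the higher mean in KNP, with a median of 0.0089. No test of one list against another was made, and the lists were not recomputed with any array left out.

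The summed signals of markers of other cell types overlapped between the breeds. Summed signals of the 5 measured T and NK cell markers ran from 386 to 1288 in KNP and from 669 to 1797 in YS, and those of the 5 macrophage markers from 3055 to 5904 and from 3442 to 11170. The 4 keratinocyte markers summed to 441 to 1331 in KNP and 447 to 927 in YS, the 2 red blood cell markers to 503 to 990 and 763 to 914, and the 5 endothelial markers to 10495 to 19199 and 13071 to 14404. The endothelial marker KDR was above the background guide on 0 arrays. The part of cell composition in the ribosomal protein values was not tested.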

How the data were processed

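The deposited table holds a linear intensity for each of 24123 probe sets on every array. Per the labels, total RNA was biotin-labelled and hybridized by the manufacturer's protocol. That every array has a 2% trimmed mean of 500 was read from the values. How probes were summarised is not given in the sources, and no counts exist, so the 4 arrays per breed limit the precision.

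Intensities were transformed to log2(signal + 16). The 124 control probe sets were left out, then the 25% of the other 23999 with the lowest mean, which left 17999. The comparison of breeds used R 4.3.3 with limma 3.58.1 (two-sided lmFit and eBayes without covariates, Benjamini-Hochberg over all probe sets tested), checked on simulated data. Symbols came from the platform annotation. All 64 member genes matched the RefSeq annotation of Sscrofa11.1 by Entrez identifier, with 0 symbols changed. Probe sets with several symbols were left out.

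Members and lists were chosen with earlier results of these data known, so no p is given for a list. Named members were the 4 of smallest p per subunit and direction, gene copies with their partners, the 6 genes of widest gap between probe sets, and RPLP0, RPLP1, RPLP2, RPSA, RPL5, RPL11 and RPS6 for their roles. From other lists up to 2 genes of smallest p were taken. Alternatives covered the filter, pseudocount, scaling, variance model, array weights, a replicate block, the 3' over 5' covariate, arrays left out, and the choice of probe set.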

Additional observations from a re-analysis of the deposited data

Results flagged for a closer look

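Groups of 4 arrays were checked for 29 named members (58 groups) and for the subunit medians and their gap (6 groups). Of these 64 groups, 3 held an array far from the others by Dixon's ratio of gap to range, and chance alone marks about 1 group in 20. Over all 62 member genes it was 4 of 124 groups. YS replicate 1 was the highest of the YS arrays for RPS19BP1, at 9.60 against 8.99 to 9.09 on the others. KNP replicate 4 was the lowest of the KNP arrays for RPL7, at 15.09 against 15.19 to 15.20. YS replicate 4 was the lowest of the YS arrays for RPLP1, at 13.79 against 14.27 to 14.33.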

How the results depend on the processing

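With each array left out in turn, the number of member genes with the higher mean in KNP ran from 51 to 60. The share over all probe sets ran from 46.8% to 54.8%. The large subunit median ran from 0.061 to 0.22, the small subunit median from 0.10 to 0.24, and their gap from -0.080 to 0.033. The number of genes without overlap ran from 0 to 9. The 9 came without KNP replicate 4, all with KNP above, where 2.7% of all probe sets were so. Quantile normalization gave 2 genes without overlap, RPL38 and RPS28, both with KNP above, where 1.18% of all probe sets were so. With the 3' over 5' covariate the gap between subunits was 0.041. Without the 3 arrays of largest 3' over 5' signal, 36 genes had the higher mean in KNP, beside 54.2% of all probe sets. The gap was then 0.029, and 6 genes did not overlap, 3 in each direction, beside 14.52% and 12.33% of all probe sets. Fewer arrays make overlap rarer, and the cause of the other shifts was not tested. In all alternatives run, 0 member probe sets passed the threshold. Samples were not treated as paired by replicate number. The correlations of same-numbered deviations across breeds were -0.17, 0.022, 0.13 and -0.19. Samples of different numbers were not compared, so these values cannot exclude a pairing. With the replicate number as a block, 0 probe sets passed. The block cannot change a difference between breeds, because each breed has every replicate number, so the count of 57 was fixed beforehand. Of 112 values of the 6 summary results under the alternatives, 100 were counted as alike to the reported one and 12 as not. Alike meant a shift of less than the spread between arrays or, for counts, of at most 1.5 times. That spread was 0.145 for the large and 0.18 for the small subunit median, wider than the medians of 0.14 and 0.17. Even a fall to 0 would thus count as alike, as did 0.030 and 0.0012 without the 3 arrays. The replicate block could not change the medians, so the 100 is no measure of stability. The gap between subunits had the other sign in 4 of its 19 values, including 0.0061 after quantile normalization, and 16 of the 29 named genes had the other sign under at least 1 alternative. The covariate, block, weights and variance model give no count of overlap.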

Other observations

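The array also carries 5 control probe sets for pig ribosomal RNA, the partner of these proteins in the ribosome, and all 5 were above the background guide on all 8 arrays. The 18S probe sets read 9.77 ± 0.85 (SD, n = 4) in KNP and 9.18 ± 0.45 in YS for the first, and 9.08 ± 1.10 and 9.56 ± 0.22 for the second. The 28S probe sets read 9.43 ± 1.05 in KNP and 8.49 ± 0.55 in YS for the first, and 11.65 ± 1.28 and 11.57 ± 0.82 for the second. The 5S probe set read 8.04 ± 0.84 in KNP and 7.85 ± 0.64 in YS. The first 18S probe set was highest on KNP replicate 1, at 10.58, where the second was lowest, at 7.66. The labels do not say how rRNA was primed or labelled, so these values are no measure of rRNA amount.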
